A study of Mus musculus with 12 samples.

Results

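mCherry-positive cells, sorted for a reporter of hypocretin (Hcrt, also called orexin), were compared with EGFP-positive cells, sorted for a reporter of melanin-concentrating hormone (MCH, gene Pmch). The samples were chosen by their labels as the 3 mCherry-positive and the 3 EGFP-positive libraries, 6 of the 12 in the series, and all gene rows were used. The question the design poses here is how the 2 sorted reporter populations differ from each other. The cells came from C57BL/6 mouse hypothalami of embryonic day 18, dissociated and grown for a week as neurospheres, which are floating clusters of neural stem cells and their progeny, in medium to which basic fibroblast growth factor was added at 10 ng/ml. mCherry-positive and mCherry-negative cells are the 2 sides of a sort after an adeno-associated virus, and EGFP-positive and EGFP-negative cells those of a sort after a lentivirus, both at a multiplicity of infection of 10. Complementary DNA was made from 0.8 ng of total RNA for the mCherry sort and from 2 ng for the EGFP sort. Reporter, virus, RNA input and sort therefore differ together between the groups, and their parts in any difference cannot be told apart. The labels name the reporters but not the promoters that drive them, and do not say whether replicates were separate cultures, so p-values measure only the spread between these samples. The negative cells of both sorts are given beside the results, because they differ in virus, input and sort in the same way but lack the reporter signal.

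Hcrt and MCH neurons are 2 separate, intermingled populations of the lateral hypothalamus that make opposing contributions to sleep and waking. Hypocretin promotes waking, and MCH neurons are active mainly in sleep. Embryonic hypothalamic neurospheres hold dividing progenitors, astrocytes and oligodendrocyte-lineage cells besides neurons, and dissected tissue can carry microglia and pieces of the adjoining pituitary.

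Gene reads per library numbered 17029023 to 32889829 over the 6 libraries. Levels below are CPM, read counts scaled to a common total of gene reads per library, after TMM scaling for library composition, in the order of replicates 1, 2 and 3, and log2 fold changes are mCherry-positive minus EGFP-positive with their standard error (SE). Mitochondrial transcripts took 1.06% to 1.54% of gene reads in mCherry-positive and 0.766% to 0.872% in EGFP-positive libraries, and 12.6 to 16.2 against 5.51 to 6.93 reads fell outside annotated genes for every 100 gene reads. On the first principal component (50.3% of the variance) the groups separated. On the second (18.9%), mCherry-positive replicate 1 stood apart from the other 5 libraries. The parts of these shares and of that library's position in the differences below were not tested, beyond the values given without that library.

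Of 16921 genes tested with edgeR's quasi-likelihood test, 1544 (9.12%) were higher in mCherry-positive and 638 (3.77%) in EGFP-positive cells at a Benjamini-Hochberg adjusted p under 0.05, and 1297 and 276 of them by at least 2-fold. The groups did not overlap in CPM for 6103 (36.1%) of the genes tested, so a lack of overlap in a single gene is common here. The higher side in mCherry-positive cells held genes of microglia, oligodendrocytes, secretory vesicles, pituitary and several imprinted genes. The higher side in EGFP-positive cells held Pmch, Id genes, Gfap and nearly all listed cell-cycle genes. The counts depended on single libraries: they were 472 and 126 without EGFP-positive replicate 2, 903 and 398 without EGFP-positive replicate 3, 1023 and 297 without mCherry-positive replicate 2, 909 and 220 without mCherry-positive replicate 3, and the second count was 409 without EGFP-positive replicate 1. Scaling by library size alone moved the median of all genes by 0.11 on the log2 scale and raised the share of calls on the mCherry side from 70.8% to 80.8%.

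**Figure D1:**
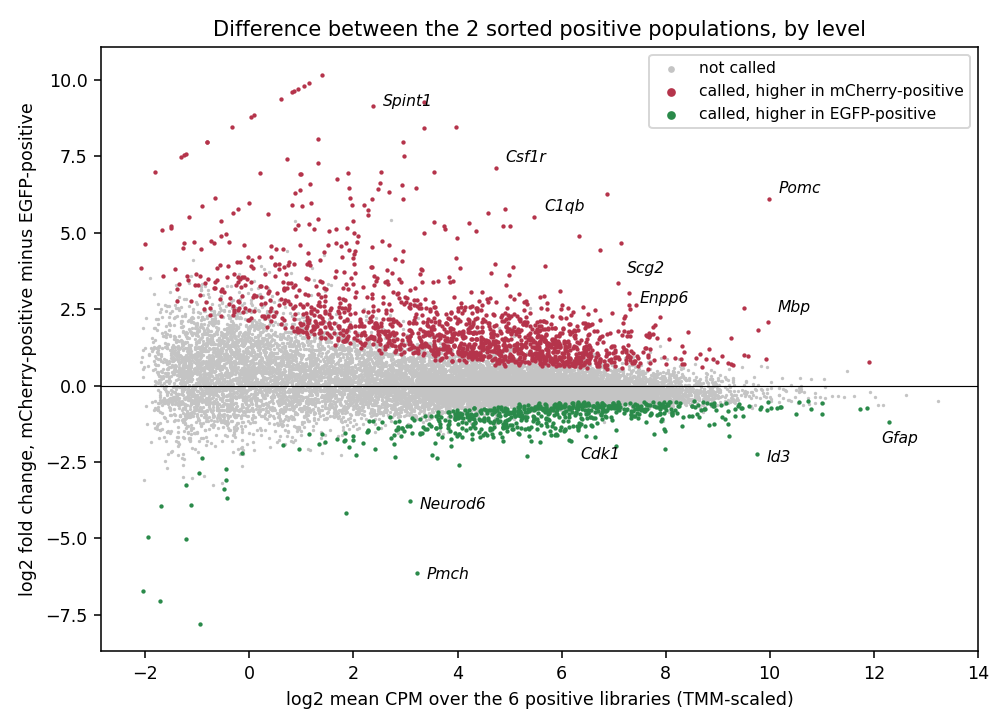
Log2 fold change between the positive populations (y axis) against log2 mean CPM over the 6 positive libraries (x axis), 1 point per gene tested, with called genes in red (1544, higher in mCherry-positive) and green (638, higher in EGFP-positive). Pmch lies lowest among the labelled genes, and Spint1 and Csf1r lie highest.

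The reporter genes were examined first. Pmch encodes the precursor of MCH, and its reads numbered 278, 479 and 539 in EGFP-positive libraries and 3, 7 and 14 in mCherry-positive libraries. In unscaled CPM the means were 17.2 ± 0.769 (SD, n = 3) and 0.257 ± 0.155 (SD, n = 3), and the groups did not overlap. The summed counts gave a 64.2-fold ratio with an exact binomial 95% interval of 42.9 to 101, and a 2-sided exact permutation test gave p = 0.1, the smallest that 3 against 3 libraries allow. In the model over all genes the log2 fold change was -6.12 (SE 0.42, adjusted p = 0.000591). Negative cells differed in the same direction: after TMM scaling, EGFP-negative libraries held 3.93, 5.02 and 4.81 CPM and mCherry-negative libraries 0.257, 0.184 and 0 CPM (log2 fold change -4.84, adjusted p = 0.00362). The difference of differences, (mCherry-positive minus EGFP-positive) minus (mCherry-negative minus EGFP-negative), was -1.35 with an adjusted p of 0.435. Pmch lies within the Parpbp locus on the opposite strand, and the strand setting of the counting is not given in the sources used here. Parpbp itself held 249 reads in mCherry-positive and 255 in EGFP-positive libraries.

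Hcrt was near the detection limit in both populations, so the defining transcript of the mCherry label was nearly absent. It held 4, 3 and 14 reads in mCherry-positive libraries and 3, 1 and 0 in EGFP-positive libraries. The exact Poisson 95% interval for the count of 0 reached 0.119 unscaled CPM. Both positive groups overlapped, and the gene was too low for the model. Reads numbered 1, 5 and 5 in mCherry-negative and 4, 2 and 1 in EGFP-negative libraries. The counts of mCherry-positive replicates 1 and 2 lay within that range. The ratio of EGFP-positive over mCherry-positive rates was 0.226 (exact binomial 95% interval 0.0565 to 0.671, exact permutation p = 0.3). Leaving out EGFP-positive replicate 3 gave 0.386 and leaving out mCherry-positive replicate 3 gave 0.428, with intervals that included 1. Intervals and limits cover counting error only, since PCR reads are not independent molecules. The populations are therefore called by their reporter colour here, not as Hcrt or MCH neurons.

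The 120 bases before the start of both genes are shown because these are the loci the reporters stand for. They are RefSeq sequences of build GRCm38.p6, written 5′ to 3′ on the gene's strand, with the letters TATAAA in capitals. Pmch (ENSMUSG00000035383, chr10:88091072-88092375) is preceded by chr10:88090952-88091071 on the + strand and Hcrt (ENSMUSG00000045471, chr11:100761069-100762931) by chr11:100762932-100763051 on the - strand.
Pmch: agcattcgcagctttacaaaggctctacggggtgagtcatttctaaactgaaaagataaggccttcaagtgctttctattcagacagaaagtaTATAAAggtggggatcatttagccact
Hcrt: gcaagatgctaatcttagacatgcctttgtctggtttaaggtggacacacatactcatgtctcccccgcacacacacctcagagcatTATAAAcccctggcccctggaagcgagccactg
Both windows held these letters shortly before the start, and 14.2% of the 27025 promoter windows of 300 bases held them on either strand. The motif was spelled out after both sequences had been viewed, so its presence in both is a description only.

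Other markers of the labelled neurons were also examined. Of 16 listed MCH neuron markers 13 were tested; 6 were called higher in mCherry-positive cells and 1, Pmch itself, in EGFP-positive cells (median log2 fold change 1.04, against -0.0012 over all genes tested), and the count of 6 was 3 without replicate 2 of either group or mCherry-positive replicate 3. Slc17a6, the vesicular glutamate transporter VGLUT2, was at 6.89, 44.1 and 11.9 CPM in mCherry-positive and 1.67, 2.31 and 2.14 CPM in EGFP-positive libraries (log2 fold change 3.39, SE 0.62, adjusted p = 0.00797). Its groups did not overlap, and negative libraries lay at 1.09 to 5.90 CPM. Tac1, the substance P precursor, was at 3.12, 6.58 and 7.90 CPM against 1.24, 1.47 and 0.737 CPM (log2 fold change 2.39, adjusted p = 0.0118). Igf1 was at 24.1, 6.49 and 5.85 CPM against 1.05, 1.59 and 1.82 CPM (log2 fold change 3.05, adjusted p = 0.00851), highest in the mCherry-positive library that also held the most microglial transcripts. Of 18 listed Hcrt neuron markers 13 were tested and 4 were called, all higher in mCherry-positive cells: Scg2, Pcsk1, Ebf2 and Dlk1 (7 of 14 without mCherry-positive replicate 1). Scg2 and Pcsk1 are also counted among the dense-core vesicle genes below. Scg2, Pcsk1 and Dlk1 rose from mCherry-positive replicate 1 to 3, the order of the pituitary genes below, and Ebf2 did not (1.48, 4.03 and 0.420 CPM). Whether pituitary cells carry part of these levels was not tested. Of the 13 Hcrt markers tested, 1 passed the filter on low counts only through the mCherry-positive libraries, namely Ebf2, with 182 reads against 2. On the MCH list 1 of 13 passed only through the mCherry-positive and 1 only through the EGFP-positive libraries. The counts of both lists are therefore a description. Over all genes tested 9.12% were called on the mCherry side and 3.77% on the EGFP side. Dlk1, a growth regulator, was at 16.8, 70.4 and 193 CPM against 23.6, 18.02 and 18.4 CPM, and the groups overlapped. Its adjusted p of 0.0469 rose above 0.05 in each leave-one-out fit other than that without mCherry-positive replicate 1, to at most 0.205.

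Among listed genes of dense-core vesicles and of neurons, 10 of 20 and 8 of 20 were called higher in mCherry-positive cells. Over all genes tested the share was 9.12%. Neuropeptide cells store peptides in dense-core vesicles, whose matrix is made by granins and whose contents are cut by prohormone convertases. Scg2 (secretogranin II, ENSMUSG00000050711, chr1:79434669-79440120) was at 63.8, 332 and 339.9 CPM in mCherry-positive and 23.6, 26.2 and 24.03 CPM in EGFP-positive libraries. All 3 mCherry-positive values lay above the others, with a log2 fold change of 3.36 (SE 0.52, adjusted p = 0.00384). Pcsk1, prohormone convertase 1, was at 2.54, 11.3 and 19.6 CPM against 0.744, 1.16 and 1.33 CPM (3.40, SE 0.65, adjusted p = 0.00955). Cadps, which primes dense-core vesicles for release, was at 51.00, 68.4 and 80.1 CPM against 24.6, 15.1 and 14.03 CPM (1.93, SE 0.28, adjusted p = 0.0032). These 3 genes were called in each of the 6 fits that left out 1 library. The other 10 dense-core vesicle genes were not called (median of the 20 1.17 on the log2 scale). The count of 10 was 14, with 2 calls on the EGFP side, without mCherry-positive replicate 1. It was 4, 3 and 6 without EGFP-positive replicates 1, 2 and 3, and 6 and 4 without mCherry-positive replicates 2 and 3. The summed level of the list did not separate the groups, at 8732, 6926 and 6182 CPM against 7822, 7972 and 8360.4 CPM.

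Of the 20 pan-neuronal genes the other 12 were not called, and the median log2 fold change was 0.77. Snap25, a synaptic vesicle fusion protein, was at 74.2, 199 and 164 CPM against 34.4, 40.8 and 37.2 CPM (2.002, SE 0.31, adjusted p = 0.00423). Nefl, the light neurofilament chain, was at 19.7, 57.9 and 26.6 CPM against 4.09, 5.78 and 9.79 CPM (2.44, SE 0.44, adjusted p = 0.00716). Replicate 1 was the lowest mCherry-positive library for both, yet lay above every EGFP-positive library. The count of 8 fell to 4, 2 and 4 without EGFP-positive replicates 1, 2 and 3 and to 3 without mCherry-positive replicate 2 or 3, and it was 12 without mCherry-positive replicate 1. The summed pan-neuronal level was 2319, 2459 and 2671 CPM in EGFP-positive and 2622, 4688 and 3846 CPM in mCherry-positive libraries, which overlapped through mCherry-positive replicate 1, and 3221 to 4642 CPM in negative libraries. Of 17 neuropeptide genes tested, 6 were called higher in mCherry-positive cells and Npy in EGFP-positive cells. The shares over all genes tested were 9.12% and 3.77%. Of the 17, 2 passed the filter on low counts only through the mCherry-positive and 1 only through the EGFP-positive libraries, so these counts are a description. Gal (galanin) was at 0.861, 15.6 and 27.8 CPM against 1.18, 0.518 and 0.526 CPM (4.40, adjusted p = 0.0179), with overlap through replicate 1 and an adjusted p of up to 0.0835 without EGFP-positive replicate 1, 2 or 3 or mCherry-positive replicate 3. Its order over mCherry-positive replicates was also that of the pituitary genes below. Npy was at 10.6, 18.97 and 19.9 CPM against 48.2, 38.1 and 28.6 CPM (-1.18, adjusted p = 0.0291), and its call was lost without EGFP-positive replicate 1 or 2 or mCherry-positive replicate 2 or 3 (adjusted p up to 0.103). The count of 6 was 1 or 2 without any 1 of the other 5 libraries and 11 without mCherry-positive replicate 1.

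Pituitary hormone genes were high in mCherry-positive replicates 2 and 3 and low in replicate 1. Pomc, the precursor of corticotropin and melanocortins, was at 3.94, 2049.7 and 3916 CPM in mCherry-positive and 39.4, 28.8 and 21.1 CPM in EGFP-positive libraries. Tshb, the thyrotropin beta chain, was at 0.123, 69.05 and 619.9 CPM against 3.97, 2.75 and 2.74 CPM. Cga, the alpha chain shared by glycoprotein hormones, was at 2.46, 60.99 and 402 CPM against 7.63, 4.07 and 4.53 CPM. For each of these 3 genes replicate 1 lay below the EGFP-positive libraries and the other 2 mCherry-positive libraries lay above them. The log2 fold changes were 6.11 (adjusted p = 0.029), 6.25 (0.0383) and 4.91 (0.033), and each call was lost without any EGFP-positive library and without mCherry-positive replicate 3. Of 18 listed genes 10 were tested and 4 called, all higher in mCherry-positive cells, against 9.12% of all genes tested. None of the 4 calls was left with limma-voom, with the replicate block, without any 1 EGFP-positive library or without mCherry-positive replicate 3, 1 gene was called without mCherry-positive replicate 2, and 10 of 13 tested genes were called without mCherry-positive replicate 1. mCherry-negative replicate 1 was also low, with a summed list level of 7.99, 226 and 177 CPM in mCherry-negative and 464, 390.1 and 360.3 CPM in EGFP-negative libraries. The hormone genes Gh and Prl were not called (log2 fold change 2.53 and 0.72, adjusted p = 0.19 and 0.75).

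**Figure D2:**
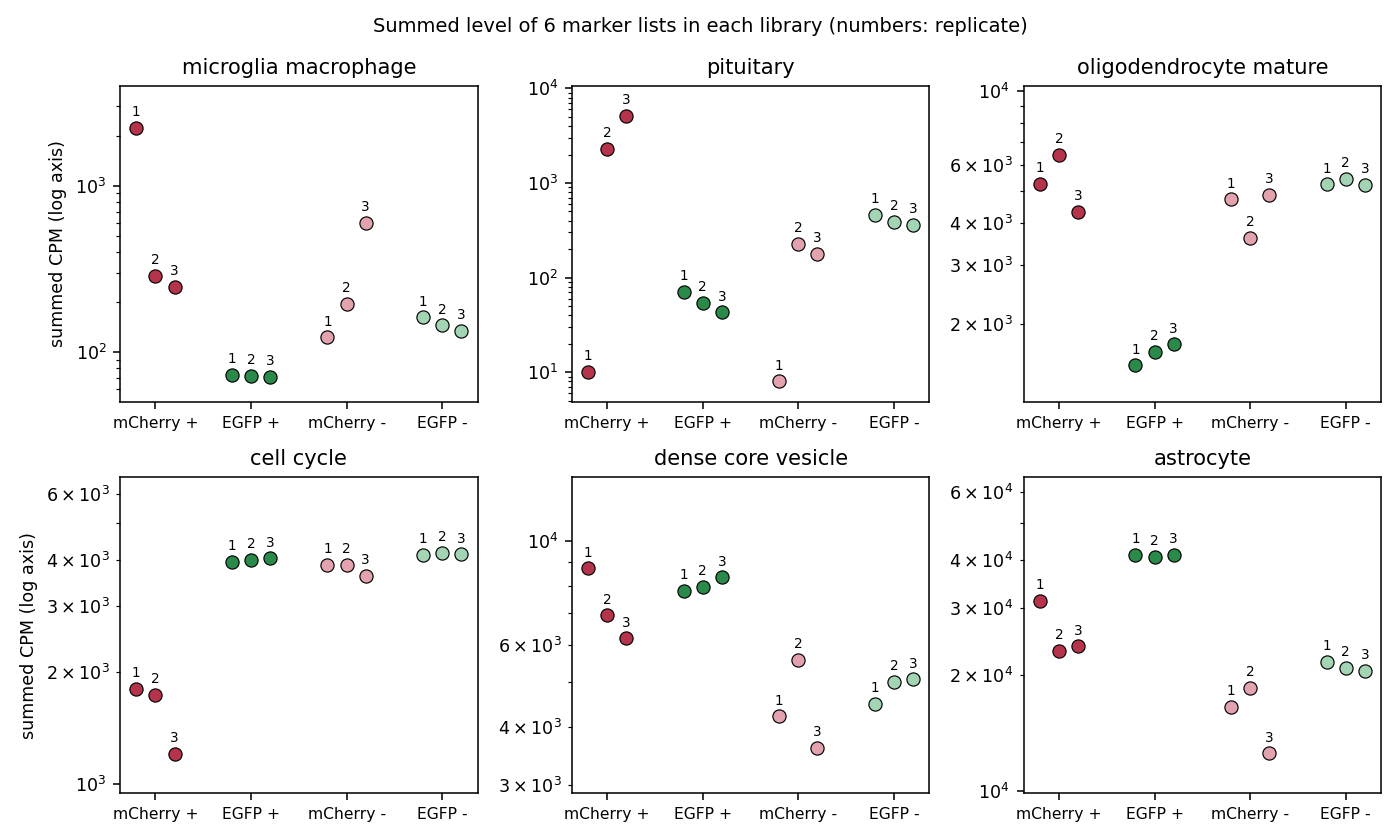
Summed CPM of 6 marker lists (log y axis) in each of the 12 libraries, with replicate numbers beside the points and the 4 sorted groups on the x axis. mCherry-positive replicate 1 was the highest library for microglial genes and among the lowest for pituitary genes, EGFP-positive libraries were the lowest for oligodendrocyte genes, and mCherry-positive libraries were the lowest for cell-cycle genes.

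Many genes of myelin and oligodendrocytes were lower in EGFP-positive than in mCherry-positive cells. Oligodendrocytes arise from dividing precursors and wrap axons in myelin. Mbp (myelin basic protein, ENSMUSG00000041607, chr18:82475146-82585637) was at 1385, 2088 and 1351 CPM in mCherry-positive and 399, 379.9 and 383 CPM in EGFP-positive libraries. The groups did not overlap, and the log2 fold change was 2.09 (SE 0.20, adjusted p = 0.000682). Every negative library lay above the EGFP-positive libraries, at 1033 to 1414 CPM. Enpp6, a choline phosphodiesterase of newly formed oligodendrocytes, was at 312, 288 and 211 CPM against 34.4, 53.6 and 57.7 CPM (2.52, SE 0.23, adjusted p = 0.000682). Mag, myelin-associated glycoprotein, was at 83.3, 148 and 89.5 CPM against 18.3, 20.4 and 20.00 CPM (2.49, SE 0.24, adjusted p = 0.000724). In bulk samples, fewer cells of a type and less RNA per cell cannot be told apart.

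Of 18 listed genes of mature oligodendrocytes 12 were called higher in mCherry-positive cells and the other 6 were not called (median log2 fold change 1.64). This list also holds Enpp6 and Gpr17, genes of earlier stages of the lineage, and Gpr17 is counted again on the precursor list below. Over all genes tested 9.12% were called on that side. The count of 12 was 10 to 13 in the fits without 1 library. Of the 18, 1 passed the filter on low counts only through the mCherry-positive libraries. Between negative cells 1 of the 18 was called, higher in EGFP-negative cells as were 1.5% of 16612 genes, and the median was -0.11. In the test of the difference of differences 11 of the 18 were called, all in the same direction, where 0.886% of 18063 genes were called with a positive and 0.559% with a negative value. That count was 7 without EGFP-positive replicate 2, EGFP-negative replicate 2 or EGFP-negative replicate 3. For Mbp the difference of differences was 2.12 (adjusted p = 0.00181) and for Enpp6 2.59 (adjusted p = 0.00254). Of 16 precursor-stage genes 7 were called higher in mCherry-positive cells (median 0.78), and the count was 2 without EGFP-positive replicate 2 and 4 without mCherry-positive replicate 2. Gpr17, a receptor of committed precursors, was at 456, 498 and 384 CPM against 125, 197 and 246 CPM (1.28, SE 0.23, adjusted p = 0.0071), while EGFP-negative libraries held 864, 977 and 870.3 CPM. Tnr, the matrix protein tenascin-R, was at 100.3, 105 and 72.9 CPM against 29.5, 27.3 and 34.03 CPM (1.66, SE 0.20, adjusted p = 0.00134). Olig2, the lineage transcription factor, was at 199, 286 and 197 CPM against 105, 58.2 and 38.98 CPM (1.79, adjusted p = 0.00894, and 0.0549 without EGFP-positive replicate 2). It differed between negative cells too, at 413, 392 and 466 CPM against 157, 200.1 and 181 CPM (log2 fold change 1.23, adjusted p = 0.000817).

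Most listed genes of microglia and macrophages, the immune cells of brain tissue, were called higher in mCherry-positive cells, and their summed level was highest in mCherry-positive replicate 1. Cd14, a receptor for bacterial lipopolysaccharide, was at 14.6, 10.7 and 11.4 CPM in EGFP-positive libraries and was not called (adjusted p = 0.619). C1qb, a chain of complement C1q, was at 202, 32.2 and 26.5 CPM in mCherry-positive and 2.67, 1.55 and 1.72 CPM in EGFP-positive libraries. Its log2 fold change was 5.51 (SE 0.80, adjusted p = 0.00334), and the groups did not overlap. Csf1r, the receptor that keeps microglia alive, was at 144, 7.96 and 6.78 CPM against 0.124, 0.0399 and 0.877 CPM (7.13, SE 1.41, adjusted p = 0.0107, and up to 0.0569 without EGFP-positive replicate 1 or 2). Tyrobp, a signalling adaptor of microglial receptors, was at 42.4, 7.41 and 9.44 CPM against 0.496, 0.518 and 0.842 CPM (4.999, SE 0.72, adjusted p = 0.00305). For C1qb, Csf1r and Tyrobp replicate 1 was several times above replicates 2 and 3, which in turn lay above the EGFP-positive libraries. Reads of Mpeg1, a macrophage perforin, numbered 1572 in mCherry-positive and 2 in EGFP-positive libraries, a ratio of 592 (exact binomial 95% interval 164 to 4890), or 130 without mCherry-positive replicate 1. Spi1, the myeloid transcription factor PU.1, held 423 reads against 0. Its ratio was 106 with the EGFP-positive group set to 3 reads, and the exact binomial 95% lower limit was 85.9. Saa3, an acute-phase protein, did not follow this order, at 30.01, 0.953 and 24.01 CPM against 0.0620, 0.399 and 0.140 CPM.

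Of 24 listed microglial genes 20 were tested and 17 were called higher in mCherry-positive cells, against 9.12% of all genes tested. The median log2 fold change was 5.17, also with EGFP-positive Spi1 set to 3 reads. Of the 20, 7 passed the filter on low counts only through the mCherry-positive libraries, so the count describes the list and supports nothing. Without mCherry-positive replicate 1, 16 of 20 were called and the median was 3.43, and limma-voom called 7. The summed level was 2239, 287 and 247 CPM in mCherry-positive, 72.9, 72.2 and 71.4 CPM in EGFP-positive and 123 to 598 CPM in negative libraries. The letters GAGGAAGT, a core of the PU.1 binding motif, were searched on both strands because Spi1 was among these genes. They were found in 3 of the 16 matched promoter windows (18.8%) and in 3.28% of all, and no window is shown. The 3 were those of C1qc, Ctss and Pf4, and Pf4 was among the 4 listed genes not tested. The motif was chosen with the expression results known, so these shares are a description of the list.

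Cell-cycle genes were lower in mCherry-positive than in EGFP-positive cells. Cdk1, the kinase that drives entry into mitosis (ENSMUSG00000019942, chr10:69335146-69352938), was at 38.1, 30.04 and 25.2 CPM in mCherry-positive and 121, 117 and 101 CPM in EGFP-positive libraries. The groups did not overlap, and the log2 fold change was -1.82 (SE 0.20, adjusted p = 0.001). Ube2c, a ubiquitin-conjugating enzyme of the anaphase-promoting complex, was at 34.7, 32.3 and 26.9 CPM against 131, 107 and 90.2 CPM (-1.77, SE 0.21, adjusted p = 0.00125). Cdca8, the borealin subunit of the chromosomal passenger complex, was at 28.7, 30.4 and 25.04 CPM against 97.9, 88.01 and 80.1 CPM (-1.62, SE 0.18, adjusted p = 0.00103). Aurkb, the kinase of the same complex, was at 20.2, 21.1 and 18.01 CPM against 61.8, 65.2 and 62.8 CPM (-1.64, SE 0.18, adjusted p = 0.001). Negative libraries of both sorts lay above every mCherry-positive library for these 4 genes, for example 86.9 to 129 CPM for Cdk1 and 85.3 to 98.4 CPM for Cdca8. Of 40 listed genes 35 were called higher in EGFP-positive cells, against 3.77% of all genes tested. The other 5 were not called, the median log2 fold change was -1.37, and 27 to 34 were called in the fits without 1 library. Between negative cells the median was -0.18, with 1 gene called in each direction, against 3.44% and 1.5% of 16612 genes. The difference of differences was called for 18 of the 40, all negative. That count rested on few libraries: it was 2, 1 and 1 without EGFP-negative replicates 1, 2 and 3, 1 and 9 without EGFP-positive replicates 2 and 3, 8 without mCherry-negative replicate 2 and 10 without mCherry-positive replicate 3, while its median kept between -1.34 and -1.08. It was -1.56 for Cdca8 (adjusted p = 0.00277). Outside the list, Pclaf, Pbk and Neil3, which act in replication, mitosis and DNA repair, also differed, with log2 fold changes of -1.66, -1.68 and -1.87 (adjusted p = 0.00547, 0.0049 and 0.00455).

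Promoters of 3 of these genes are shown because they carry 2 elements known from G2 and mitosis genes, the CCAAT box and the cell-cycle homology region. Capitals mark CCAAT (or ATTGG on the other strand) and TTTGAA (or TTCAAA) in the 120 bases before the RefSeq start, from build GRCm38.p6, 5′ to 3′ on the gene's strand. The windows are chr10:69352913-69353032 (- strand), chr2:164769809-164769928 (+ strand) and chr4:118437344-118437463 (- strand), the last for the anaphase activator Cdc20 (log2 fold change -1.34, adjusted p = 0.00157).
Cdk1: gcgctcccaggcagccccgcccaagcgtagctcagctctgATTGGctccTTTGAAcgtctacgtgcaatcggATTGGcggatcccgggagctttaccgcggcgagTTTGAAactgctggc
Ube2c: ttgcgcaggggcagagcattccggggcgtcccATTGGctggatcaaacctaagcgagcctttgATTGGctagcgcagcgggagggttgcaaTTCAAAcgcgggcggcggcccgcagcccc
Cdc20: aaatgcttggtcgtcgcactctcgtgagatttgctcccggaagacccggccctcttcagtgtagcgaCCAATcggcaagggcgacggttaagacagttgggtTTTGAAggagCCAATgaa
Of the 40 listed genes 29 matched a promoter window of 300 bases. CCAAT was present in 23 of them (79.3%, against 37.9% of all 27025 windows), TTTGAA in 16 (55.2% against 18.1%) and both in 15 (51.7% against 7.12%). The motifs were chosen with the expression results known, and the 3 genes were picked because both motifs lie in the stretch shown. These shares are a description of the list.

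**Figure D3:**
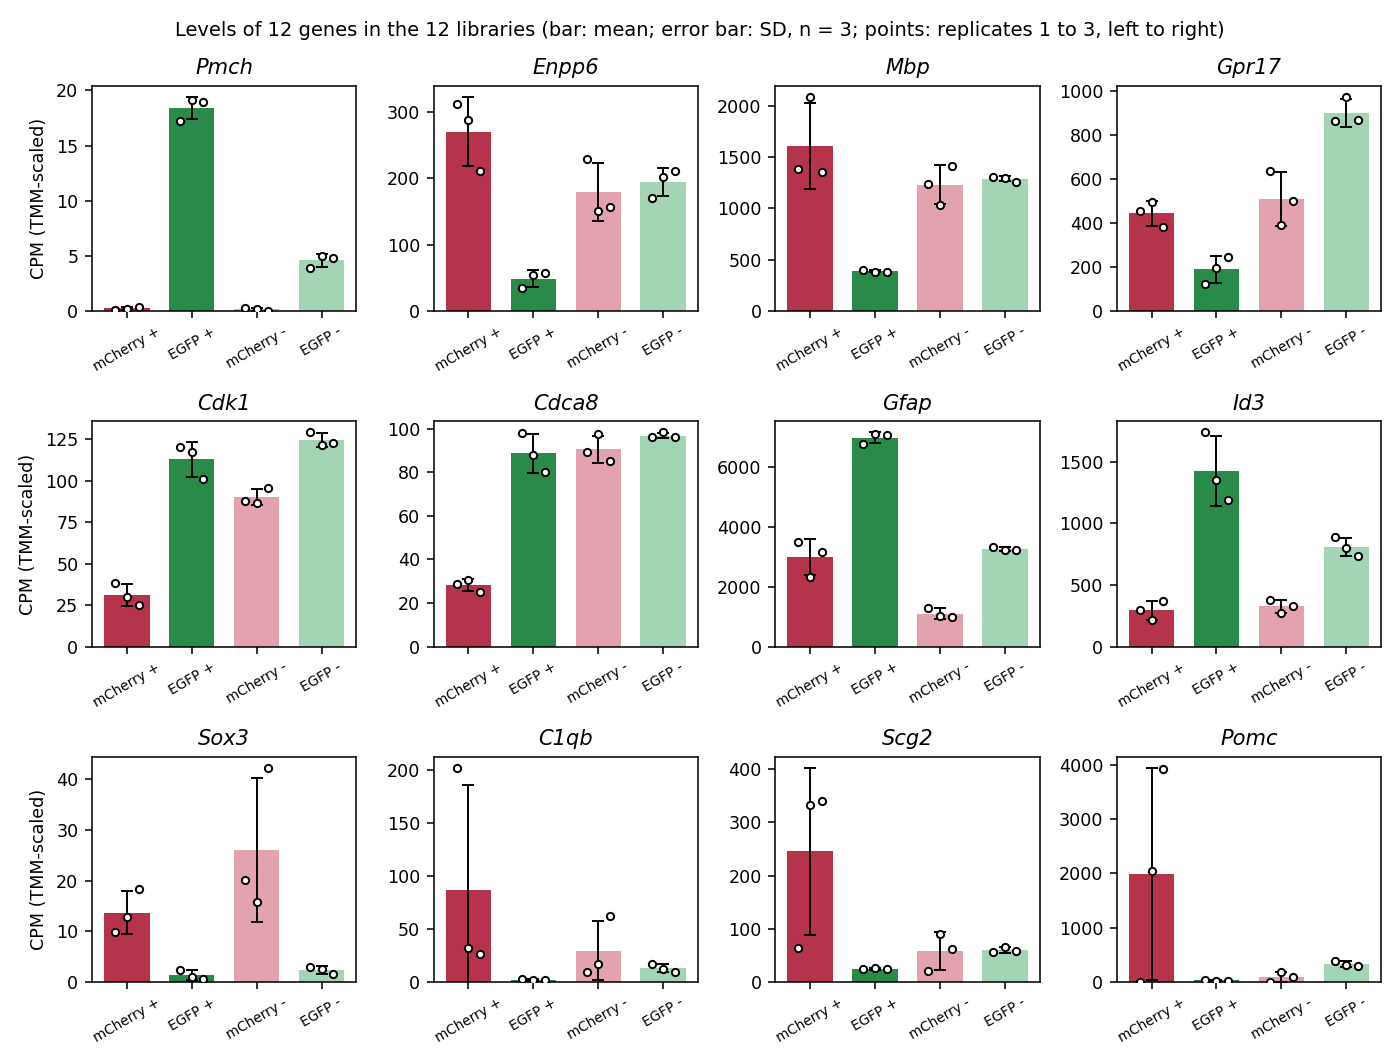
Levels of 12 genes in TMM-scaled CPM (y axes from 0, separate for each gene) in the 4 groups, with bars for means, error bars for the SD over 3 replicates (cut at 0) and points for replicates 1 to 3. EGFP-positive libraries were low for Enpp6 and Mbp, mCherry-positive libraries were low for Cdk1 and Cdca8, and Gfap, Id3 and Sox3 differed between the sorts in the same direction in positive and in negative cells.

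A further set of genes differed between the 2 sorts in the same direction in positive and in negative cells. Gfap, the astrocyte intermediate filament (ENSMUSG00000020932, chr11:102887336-102900912), was at 3492, 2339.7 and 3171 CPM in mCherry-positive and 6770.0, 7120.5 and 7057 CPM in EGFP-positive libraries (-1.18, SE 0.17, adjusted p = 0.00309). It was at 1303, 1027 and 982 CPM in mCherry-negative and 3331, 3234 and 3230.1 CPM in EGFP-negative libraries (-1.57, adjusted p = 0.00018). Id3, an inhibitor of basic helix-loop-helix factors induced by bone morphogenetic proteins, was at 299, 217 and 368 CPM against 1741, 1348 and 1186 CPM (-2.24, SE 0.24, adjusted p = 0.001). In negative cells it was at 379.9, 272 and 329 CPM against 889.6, 796 and 738 CPM (-1.32, adjusted p = 0.000827). Id1 was at 50.6, 39.2 and 67.1 CPM against 249, 196 and 187 CPM in positive cells (-1.97, adjusted p = 0.00134; negative cells -0.87, adjusted p = 0.0105). Neurod6, a neuronal differentiation factor, was at 0.287, 1.63 and 1.37 CPM against 14.3, 16.9 and 16.2 CPM (-3.78, SE 0.51, adjusted p = 0.00226; negative cells -2.97, adjusted p = 0.000208). On the mCherry side Sox3, a progenitor factor, was at 9.96, 12.9 and 18.3 CPM against 2.48, 0.957 and 0.702 CPM (3.39, SE 0.50, adjusted p = 0.00366; negative cells 3.44, adjusted p = 0.00112). Spry1 and Spred1, feedback inhibitors of fibroblast growth factor signalling, had log2 fold changes of 1.43 and 2.22 in positive (adjusted p = 0.00324 and 0.00159) and 1.81 and 1.52 in negative cells (adjusted p = 0.000233 and 0.0146). Of 19 fibroblast growth factor response genes tested 3, Spry1 and Spred1 among them, were called on the mCherry side and 1 on the EGFP side. The shares over all genes tested were 9.12% and 3.77%. The median log2 fold change of the 19 was -0.32, so the list as a whole did not lean to the mCherry side. In edgeR the difference of differences was not called for any of the 7 genes named in this paragraph, and for Id1 it was -1.15 (adjusted p = 0.0592). DESeq2 called it for Id3 and Id1 (adjusted p = 0.0471 and 0.00898). An adjusted p above 0.05 does not show that the sizes were equal.

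Over all genes, those called between positive cells mostly kept their direction between negative cells, which are other libraries of the same 2 sorts. Of the 1544 genes higher in mCherry-positive cells 1493 were tested in negative cells, 1212 (81.2%) had the same sign there and 388 (26.0%) were also called. Of the 638 higher in EGFP-positive cells 633 were tested, 530 (83.7%) had the same sign and 72 (11.4%) were called. The background is 64.9% of 16100 genes with the same sign in both. For the calls it is 3.44% and 1.5% of 16612 genes, called higher in mCherry-negative and EGFP-negative cells. The medians of the called genes were 1.68 in positive and 0.58 in negative cells on the mCherry side, and -0.93 and -0.28 on the EGFP side. The difference of differences was itself called for 144 and 85 of these genes, so for the rest a change of size between positive and negative cells was not shown.

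**Figure D4:**
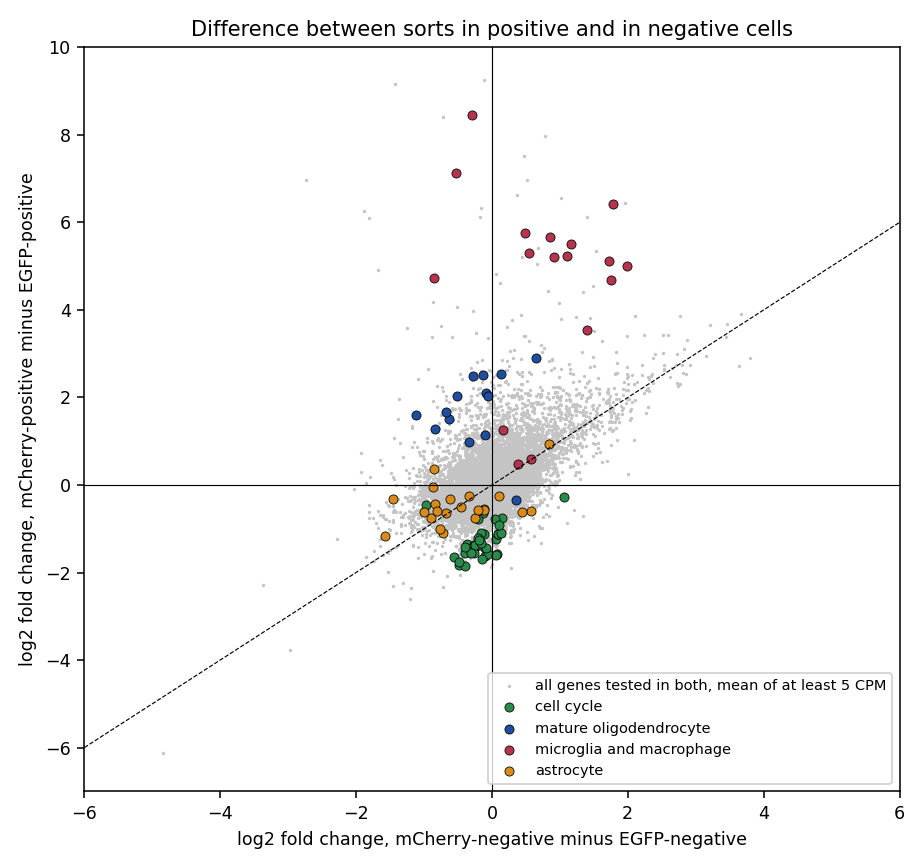
Log2 fold change between positive cells (y axis) against that between negative cells (x axis) for 11960 genes that averaged 5 CPM or more in the positive libraries, with 4 marker lists in colour and a dashed line of equal values. The astrocyte list has a negative median on both axes (-0.57 and -0.65), whereas the cell-cycle list has -1.37 on the y axis and -0.18 on the x axis.

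Astrocyte and progenitor genes leaned to the EGFP side. For comparison with the list counts below, 3.77% of all genes tested were called on the EGFP side and 9.12% on the mCherry side. Of 22 astrocyte genes 6 were called higher in EGFP-positive cells and 1, the bicarbonate transporter Slc4a4, in mCherry-positive cells (median log2 fold change -0.57 in positive and -0.65 in negative cells). The count of 6 was 2 or 3 without any 1 of the other 5 libraries and 13 without mCherry-positive replicate 1. Atp1b2, a sodium pump subunit of astrocytes, was at 491, 372 and 405 CPM against 785, 878 and 943 CPM (-0.997, SE 0.16, adjusted p = 0.0049). The summed astrocyte level was 31327, 23165 and 23830.0 CPM in mCherry-positive, 41184, 40814 and 41281 CPM in EGFP-positive and 12545 to 21721 CPM in negative libraries. Of 20 progenitor genes 5 were called higher in EGFP-positive cells, and Sox3 was called on the other side. Without EGFP-positive replicate 2 or mCherry-positive replicate 2 none of the 5 calls was left, and the count was 2 without EGFP-positive replicate 1 or mCherry-positive replicate 3. Hes5, a Notch target, was at 205, 242 and 324 CPM against 729, 459 and 424 CPM (-1.03, adjusted p = 0.0276, and up to 0.087 without EGFP-positive or mCherry-positive replicate 1 or 2). Lfng, which modifies Notch, was at 65.4, 56.7 and 57.00 CPM against 119, 131 and 129 CPM (-1.04, SE 0.16, adjusted p = 0.00384). Of 21 Notch pathway genes 4 were called on the EGFP side (2 without EGFP-positive replicate 2 or mCherry-positive replicate 1 or 2) and 1, the ligand Jag2, on the mCherry side (3.51, adjusted p = 0.00802).

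Transmitter and patterning genes split. Dlx2 and Gsx2, factors of GABAergic progenitors, were at 41.9, 68.5 and 72.7 CPM and 2.09, 1.63 and 1.96 CPM in mCherry-positive against 142, 132 and 123 CPM and 8.19, 6.10 and 3.89 CPM in EGFP-positive libraries (-1.08 and -1.64, adjusted p = 0.0131 and 0.0257). Gad1, a GABA-synthesizing enzyme, was at 112, 203 and 196 CPM against 65.9, 86.4 and 99.2 CPM (1.07, adjusted p = 0.0203). All 3 calls were lost without EGFP-positive replicate 2 (adjusted p up to 0.063, 0.111 and 0.0956 over the leave-one-out fits). Nkx2-4, a ventral hypothalamic factor, was at 8.69, 14.1 and 11.6 CPM against 1.61, 0.717 and 0.982 CPM (3.43, SE 0.41, adjusted p = 0.00134; negative cells 2.23, adjusted p = 0.033). Of 31 hypothalamic factors tested 4 were called on the mCherry side and 3 on the EGFP side, against 9.12% and 3.77% of all genes tested. Of the 31, 4 passed the filter on low counts only through the mCherry-positive libraries, so these counts are a description. The counts were 1 and 0 without EGFP-positive replicate 2 and 1 and 1 without mCherry-positive replicate 3. They were 2 and 1 without mCherry-positive replicate 2 and 10 and 3 without mCherry-positive replicate 1. Bmp4, a secreted signal, was at 34.4, 51.7 and 27.6 CPM against 11.97, 12.6 and 11.1 CPM (1.71, SE 0.26, adjusted p = 0.00384), and its antagonist Nog was at 3.20, 2.98 and 2.86 CPM against 10.1, 10.6 and 9.65 CPM (-1.71, SE 0.28, adjusted p = 0.00538). EGFP-positive libraries were the lowest group for Bmp4, with 32.3 to 59.6 CPM in negative libraries.

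Imprinted genes, which are expressed from 1 parental allele, were called higher in mCherry-positive cells in 11 of 31 cases and higher in EGFP-positive cells in 1 (median log2 fold change 0.79 in positive and -0.01 in negative cells). The shares over all genes tested were 9.12% and 3.77%. Without EGFP-positive replicate 2 the count of 11 was 7. Rian, a noncoding RNA of the Dlk1 locus (ENSMUSG00000097451, chr12:109603940-109661716), was at 27.6, 44.3 and 58.2 CPM against 6.82, 5.74 and 5.96 CPM (2.86, SE 0.30, adjusted p = 0.000925). Zim1, a zinc finger gene, was at 5.66, 7.81 and 11.1 CPM against 0.992, 0.558 and 1.16 CPM (3.23, SE 0.44, adjusted p = 0.00244). Kcnq1ot1, a noncoding RNA, was at 63.8, 76.7 and 65.2 CPM against 28.4, 17.1 and 16.4 CPM (1.77, SE 0.25, adjusted p = 0.00297). All 3 were higher in every mCherry-positive library. Mest was on the EGFP side, at 188, 171 and 188 CPM against 287, 343 and 361 CPM (-0.81, adjusted p = 0.00923, and 0.0735 without EGFP-positive replicate 2).

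**Figure D5:**
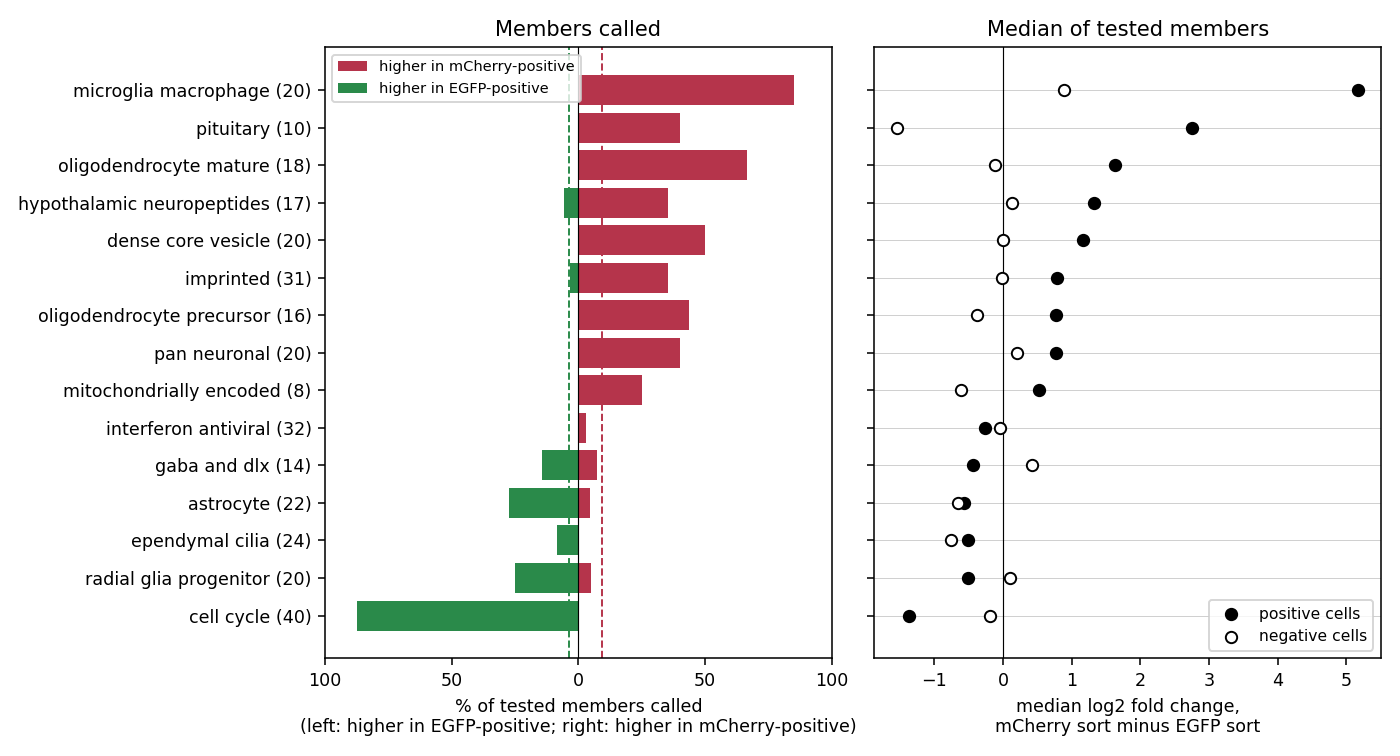
Left, share of tested members of 15 lists (number tested in brackets) called in each direction, with dashed lines at the shares of all genes; right, median log2 fold change of each list in positive (filled) and negative cells (open). Cell-cycle genes stand out on the EGFP side and microglial and mature oligodendrocyte genes on the mCherry side, while their medians in negative cells lie nearer 0.

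Epithelial and contractile genes gave the last contrasts. Spint1, a protease inhibitor of epithelia (ENSMUSG00000027315, chr2:119237362-119249527), held 1020 reads in mCherry-positive and 1 in EGFP-positive libraries, a ratio of 768 with an exact binomial 95% interval of 137 to 30354. It was at 5.25, 9.96 and 15.9 CPM in mCherry-positive libraries and 0.385 to 3.46 CPM in negative libraries. Mal2, a transport protein of polarized cells, was at 9.47, 22.7 and 11.1 CPM against 0.620, 0.359 and 1.61 CPM (4.07, SE 0.57, adjusted p = 0.00278). Epcam, an epithelial adhesion protein, was at 3.12, 22.4 and 63.3 CPM against 1.55, 2.11 and 1.40 CPM (4.18, adjusted p = 0.0123, and up to 0.0597 without any 1 EGFP-positive library). Its order over mCherry-positive replicates was that of the pituitary genes, and whether those cells carry it was not tested. Of 20 epithelial genes 11 were tested and 3 called, or 9 of 14 without mCherry-positive replicate 1. Over all genes tested 9.12% were called higher in mCherry-positive cells. Of the 11, 3 passed the filter on low counts only through the mCherry-positive libraries, so these counts are a description. Myl9, a smooth muscle myosin chain, was higher in EGFP-positive cells, at 31.3, 27.3 and 25.2 CPM against 80.8, 60.7 and 56.7 CPM (-1.21, SE 0.21, adjusted p = 0.00628), with 36.8 to 45.3 CPM in negative libraries. Fam84a was at 111, 81.6 and 94.1 CPM against 379, 403 and 450.5 CPM (-2.06, SE 0.17, adjusted p = 0.000682) and at 94.2 to 170.3 CPM in negative libraries, so the EGFP-positive group stood apart.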

How the data were processed

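The deposited files hold raw read counts per Ensembl gene, made by the authors; per the submitters' processing notes, cutadapt 1.8, STAR 2.5.2b and HTSeq 0.6.1 were used with build GRCm38. Counting settings, strand and annotation release are not given in the sources used here. HTSeq's summary entries were left out of library sizes (31.4% to 35.7% of counted reads in the 6 libraries). Of 48709 identifiers 48349 matched GENCODE M21. Counts were tested with edgeR 4.0.16 in R 4.3.3: filterByExpr (minimum count 10, minimum total 15), TMM scaling, group as the only term, Benjamini-Hochberg adjustment over all genes tested. The 6 positive and the 6 negative libraries were fitted separately, and the difference of differences on all 12. SE is the absolute log2 fold change over the square root of F. Alternatives were other scalings, filters, DESeq2 1.42.0, limma-voom (limma 3.58.1), a replicate block, a fit of all 12 libraries and leaving out each library. The fit was tested on simulated data.

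The 39 gene lists were chosen with earlier results of these data known, as were the comparisons, and are described by counts and medians only. Named genes are Hcrt and Pmch, the 12 largest differences in each direction among called, non-overlapping genes with informative symbols that averaged 5 CPM or more, 6 in each direction of the difference of differences, up to 4 called members per list (2 if none is called), and up to 2 called against the list's median. Cdc20, Gh, Prl, Parpbp, Spi1 and Cd14 were named after their values were seen. Some selected genes are not reported here. Replicate pairs of positive libraries differed by more than counting noise (chi-square per degree of freedom 20.0 to 88.5), so none was a copy.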

Additional observations from a re-analysis of the deposited data

Results flagged for a closer look

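For the genes below the difference between the sorts was not the same in positive as in negative cells, by the test of the difference of differences in the fit of all 12 libraries. Values are that difference on the log2 scale, (mCherry-positive minus EGFP-positive) minus (mCherry-negative minus EGFP-negative), each with an edgeR adjusted p under 0.05. All 42 values kept their sign in each fit that tested the gene, but most calls depended on single libraries: 10 of the 42 stayed called in each of the 12 fits without 1 library. Without EGFP-negative replicates 1, 2 and 3 the calls numbered 14, 13 and 12, without EGFP-positive replicates 1, 2 and 3 they numbered 28, 14 and 26, without mCherry-negative replicates 1, 2 and 3 they numbered 35, 23 and 39, and without mCherry-positive replicates 1, 2 and 3 they numbered 41, 34 and 33. The 10 are Mbp, Enpp6, Mag, Gpr17, Cdca8, Spint1, Cx3cr1, Fam84a, Car3 and Bmp4. The replicate block called 30 of the 42, limma-voom 26 and DESeq2 all 41 to which it gave an adjusted p.

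Among oligodendrocyte-lineage genes it was 2.12 for Mbp, 2.59 for Enpp6, 2.72 for Mag, 1.99 for Tnr, 2.06 for Gpr17, 1.92 for Neu4 and 1.60 for Sox10. In each of these EGFP-positive cells had the lowest group mean. For cell-cycle genes the values were -1.39 for Cdk1, -1.12 for Aurkb, -1.56 for Cdca8, -1.33 for Ube2c, -1.77 for Pclaf, -1.75 for Pbk and -1.90 for Neil3, with mCherry-positive cells lowest.

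Myeloid genes had values of 9.33 for Mpeg1, 8.68 for Cx3cr1, 9.09 for Cybb, 7.61 for Csf1r and 6.42 for Gpr84, and their levels were highest in mCherry-positive replicate 1. None of these 5 was called with limma-voom. Epithelial genes had 10.53 for Spint1, 4.52 for Mal2 and 4.99 for Epcam. Oacyl, an acyltransferase gene, had 9.62, with levels of 0.205, 13.8 and 55.8 CPM in mCherry-positive libraries. The fitted sizes of genes with almost no reads in EGFP-positive cells, such as Spint1, Mpeg1, Cybb and Oacyl, depend on the prior count and are not bounds.

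For neuronal and secretory genes the values were 3.37 for Scg2, 4.22 for Slc17a6, 2.60 for Nefl and 2.02 for Slc1a1. The GABAergic progenitor factors had -1.65 for Dlx2 and -2.11 for Gsx2, and Mfng, a Notch modifier, had -1.39. Imprinted Rian and Zim1 had 1.92 and 3.84. Frzb, a secreted Wnt antagonist, had 1.79, and Bmp4, a secreted signal, had 2.12. Contractile and matrix genes had -2.10 for Acta2, -1.85 for Tagln, -1.32 for Myl9 and -1.07 for Fbln1. Fam84a had -1.64 and Car3, a carbonic anhydrase, had -2.03. For Car3 the log2 fold change was 1.11 in negative cells (edgeR adjusted p = 0.0141) and -0.87 in positive cells (adjusted p = 0.0277). The call in positive cells stayed in 2 of the 6 fits without 1 library. The mitochondrial transcripts mt-Nd5 and mt-Co1 had 1.04 and 1.02.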

How the results depend on the processing

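The 129 called genes that the rule for names selects kept their sign under each alternative that gave them a value (107 of them under the stricter filter, 124 with DESeq2 and 129 otherwise), and 63 of them stayed called in each fit without 1 library. Of genes not called, Mfsd2a (0.16) ranged from -0.10, without mCherry-positive replicate 2, to 0.33 in fits without 1 library, and Ddx3y (-0.14) from -0.36 to 0.044, without EGFP-positive replicate 3. Genes called higher in mCherry-positive and EGFP-positive cells (1544 and 638) numbered 990 and 336 with the replicate block, which left 97 of these 129 calls. Same-numbered libraries did not deviate together throughout, with correlations of -0.09, -0.04 and 0.06 between positive libraries. Correlations were 0.126, -0.0191 and 0.0246 between mCherry-positive and mCherry-negative and 0.114, -0.0046 and 0.0287 between EGFP-positive and EGFP-negative libraries. Such correlations over all genes cannot exclude pairing within a sort. The summed pituitary level was lowest in replicate 1 of both mCherry-positive (10.2 CPM) and mCherry-negative cells (7.99 CPM). The main fits treat libraries as unpaired, and counts with the replicate block are given beside them. DESeq2 called 2053 and 1107, the fit of all 12 libraries 1788 and 1385, library size scaling 1776 and 421, and the 2-fold limit left 276 on the EGFP side. Fits without 1 library gave 472 to 2097 and 126 to 899. Between negative cells (571 and 249), DESeq2 called 988 and 642, no filter 440 and the replicate block 160 on the EGFP side, and fits without 1 library gave 229 to 1185 and 40 to 928, lowest without EGFP-negative replicate 1 and highest without mCherry-negative replicate 3. For the difference of differences (160 and 101) the counts were 582 and 308 with DESeq2, 483 and 192 with no filter, 77 and 38 with the replicate block, 99 positive with limma-voom, 262 positive with the stricter filter, 60 negative with library size and 67 negative with upper-quartile scaling. Its fits without 1 library gave 22 to 405 and 4 to 186, lowest without EGFP-negative replicate 3 and 2 and highest without mCherry-positive replicate 1. The EGFP-positive over mCherry-positive rate of Hcrt (0.226) was 0.0733 to 0.428 without 1 library, its interval including 1 at 0.386 and 0.428. The causes of these shifts were not tested. Depth limits Hcrt, at 0 to 14 reads a library.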

Other observations

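Interferon and antiviral genes hung on 1 library. Of 32 genes tested 1, Mx2, was called, higher in mCherry-positive cells (10.7, 10.9 and 9.10 CPM against 5.33, 3.67 and 4.91 CPM, log2 fold change 1.18, adjusted p = 0.0253, and up to 0.163 without EGFP-positive replicate 2 or 3 or mCherry-positive replicate 2). Over all genes tested 9.12% were called on that side. The summed level was 2565, 1169 and 837 CPM in mCherry-positive and 1978, 1901 and 1819 CPM in EGFP-positive libraries. Without mCherry-positive replicate 1, the library with the most microglial transcripts, 16 of the 32 were called higher in EGFP-positive cells and the median log2 fold change went from -0.26 to -0.93. Whether the microglial transcripts carry this was not tested.

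Sterol synthesis and stress-response lists had median log2 fold changes of -0.47 and -0.33, against -0.0012 over all genes tested. Over all genes tested 3.77% were called higher in EGFP-positive cells. Of 23 sterol synthesis genes 2 were called, both higher in EGFP-positive cells, Srebf2 (-0.64, adjusted p = 0.022) and Dhcr7 (-0.77, adjusted p = 0.0285). Of 24 stress-response genes 3 were called on the same side, among them the serine synthesis enzyme Phgdh (-0.68, adjusted p = 0.0163). Each of these calls was lost without EGFP-positive replicate 2 (adjusted p up to 0.161, 0.119 and 0.107 over the fits without 1 library). Of 8 mitochondrially encoded genes tested 2 were called, both higher in mCherry-positive cells, against 9.12% of all genes tested. That count was 0 to 4 in fits without 1 library. The median of the mitochondrially encoded genes was 0.52 in positive and -0.61 in negative cells. In 5 lists edgeR called no gene. At an unadjusted p under 0.05 they held 8 of 23 large ribosomal protein genes (against 4936 of 16921 over all genes), 1 of 3 erythroid genes, and none of 8 endothelial, 5 angiotensin and 6 sex-linked genes. DESeq2 called 1 ribosomal protein gene, and limma-voom called none in the 5 lists.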
